A study of Mus musculus with 12 samples.

Results

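The transcripts of 9 transcription factors that set and keep hepatocyte identity were measured in livers of mice exposed to secondhand smoke (SHS) and of control mice. The factors were Hnf4a, the forkhead factors Foxa1, Foxa2 and Foxa3, the Onecut factors Onecut1 and Onecut2, the C/EBP factors Cebpa and Cebpb, and the nuclear receptor Nr5a2. They were listed by name, with earlier results of these data known, and every probe set whose annotation named 1 of them was kept, whatever its values. Each probe set is a small collection of array probes against the transcripts of a gene. This gave 19 probe sets of the 45037 tested, and 9 genes of the 18193 that a probe set named alone. Liver RNA was hybridised to Affymetrix Mouse Genome 430 2.0 arrays, 1 array per sample, from adult male mice on a C57BL/6 background that all ate a standard diet. The 4 control mice were sham-treated in clean air (replicates 1 to 4). The 4 SHS4m mice had been exposed to SHS with the whole body for 4 months (replicates 66 to 69), and the 4 SHS4m+1m recovery mice had the same exposure and then 1 month in clean air (replicates 70 to 73). Both exposed groups were set against the same 4 control arrays, so the comparisons with control share them. The labels do not say whether these controls had the recovery period, so an age difference of 1 month from 1 of the exposed groups is possible. Nor do they give the time of day at which livers were taken. The tissue was whole liver, in which fewer cells of a type and less RNA per cell cannot be told apart.

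Hepatocytes hold their identity through a small circle of transcription factors that bind each other's genes and the genes for liver products. FOXA proteins open liver chromatin, HNF4A, a nuclear receptor, drives genes for lipoproteins, clotting factors and ammonia disposal, and the Onecut factors (ONECUT1 is also called HNF6) act with both in glucose and bile acid pathways. C/EBP-alpha drives genes of the differentiated, fed and fasted liver, C/EBP-beta takes part in the acute phase and in regeneration, and NR5A2, also called LRH-1, controls bile acid and cholesterol genes.

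The factors did not move together. At the end of the 4-month exposure, Foxa1, Foxa3 and Nr5a2 fell by their brightest probe sets, and these calls kept an adjusted p under 0.05 under each of 21 alternative settings. Onecut1 fell on both of its probe sets, calls lost without any of 6 or 7 single arrays. Cebpb was called higher on 1 of 2 probe sets, a call lost in 11 of the 21, and by the mean of the 2 (limma adjusted p = 0.0418). For Onecut2, 1 of 3 probe sets was called lower and the mean of the 3 did not pass (limma adjusted p = 0.0609). For Hnf4a 1 of 4 probe sets was called higher while its brightest did not pass. After 1 month in clean air, Nr5a2 was the only one of the 9 called against control, and it was lower. Foxa3 and Cebpa were higher in the recovery mice than in the SHS4m mice. Onecut1, Foxa1 and Foxa3 are among the genes that the study listed as changed on these same arrays, so their direction here is not independent evidence. The study listed Onecut1 as changed in both exposed groups. Its threshold was a p under 0.05 and a 2-fold change, unlike the adjusted p used here. For Onecut1 the study also reported lower levels by RT-qPCR, another RNA assay, in both exposed groups, with a smaller fall after recovery.

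The 250 bases upstream of an annotated start of 5 of these genes are shown. They are those called against control by their brightest probe set, apart from Onecut2, which is named only. The windows come from RefSeq (mouse build GRCm38.p6) and are written from 5′ to 3′ on the gene's own strand. Capitals mark a match, on either strand, to 1 of 9 short motifs: the forkhead motifs TGTTTAC and TGTTTGC, the Onecut motif ATTGAT, the HNF4 motif CAAAGTCCA, the NR5A motif CAAGGTCA, the C/EBP motif TTGCNNAA, the cyclic AMP response core TGACG, the E-box CACGTG and the D-box TTATGTAA. Nr5a2 has 2 annotated starts. The Foxa1 window lies inside the annotated span of the gene (chr12:57540628-57548029), before an internal start. The order is Onecut1 (chr9:74861671-74861920, plus strand), Foxa1 (chr12:57546112-57546361, minus strand), Foxa3 (chr7:19023540-19023789, minus strand), Cebpb (chr2:167688665-167688914, plus strand), and Nr5a2 at its downstream start (chr1:136953631-136953880, minus strand) and at its upstream start (chr1:136960449-136960698, minus strand).
Onecut1: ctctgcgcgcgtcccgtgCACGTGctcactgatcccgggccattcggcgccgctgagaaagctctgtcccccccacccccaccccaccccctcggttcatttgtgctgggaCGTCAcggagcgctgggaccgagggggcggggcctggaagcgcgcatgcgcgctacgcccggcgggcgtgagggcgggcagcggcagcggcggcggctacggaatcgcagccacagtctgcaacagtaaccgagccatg
Foxa1: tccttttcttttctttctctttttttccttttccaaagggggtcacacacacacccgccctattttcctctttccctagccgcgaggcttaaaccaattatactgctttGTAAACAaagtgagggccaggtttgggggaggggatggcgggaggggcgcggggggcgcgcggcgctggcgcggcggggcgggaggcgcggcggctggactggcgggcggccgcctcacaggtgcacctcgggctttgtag
Foxa3: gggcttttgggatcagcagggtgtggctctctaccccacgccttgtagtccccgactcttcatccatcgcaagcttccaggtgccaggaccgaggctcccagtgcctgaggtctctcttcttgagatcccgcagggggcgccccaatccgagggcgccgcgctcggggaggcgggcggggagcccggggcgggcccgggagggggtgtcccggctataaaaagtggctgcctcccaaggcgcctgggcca
Cebpb: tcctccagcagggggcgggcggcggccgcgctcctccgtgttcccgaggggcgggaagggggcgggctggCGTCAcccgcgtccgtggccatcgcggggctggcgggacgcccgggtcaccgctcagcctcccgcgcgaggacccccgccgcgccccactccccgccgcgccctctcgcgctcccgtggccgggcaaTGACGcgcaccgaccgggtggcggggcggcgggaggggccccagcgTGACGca
Nr5a2, downstream start: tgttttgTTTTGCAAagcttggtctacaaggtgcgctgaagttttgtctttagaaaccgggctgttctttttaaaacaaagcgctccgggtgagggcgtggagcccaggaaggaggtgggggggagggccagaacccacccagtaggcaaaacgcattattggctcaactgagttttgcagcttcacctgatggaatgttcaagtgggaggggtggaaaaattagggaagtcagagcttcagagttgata
Nr5a2, upstream start: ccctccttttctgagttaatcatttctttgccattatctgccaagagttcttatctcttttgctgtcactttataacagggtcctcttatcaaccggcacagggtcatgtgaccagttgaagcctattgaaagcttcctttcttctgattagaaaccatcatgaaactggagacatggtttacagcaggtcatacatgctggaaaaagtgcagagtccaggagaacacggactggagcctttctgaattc

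The GC share was 81.6% in the Cebpb window, 71.6% for Onecut1, 68.8% for Foxa3, 62.0% for Foxa1, and 49.6% and 43.2% for the 2 Nr5a2 windows, against a median of 52.4% over all 32851 windows. The Foxa1 window held the forkhead motif TGTTTAC on the opposite strand, 141 to 135 bases before its internal start. That motif was held by 3.17% of all windows. The Onecut1 window held an E-box 232 to 227 bases before the start (6.02% of all windows) and the core TGACG on the opposite strand at 139 to 135 (17.8%). The Cebpb window held TGACG at 3 places, 180 to 176 bases before the start on the opposite strand and 53 to 49 and 7 to 3 on the gene's strand. The downstream Nr5a2 window held the C/EBP motif on the opposite strand at 243 to 236 (9.56%), while the upstream window and that of Foxa3 held none of the 9. Among the members not printed, the Onecut motif ATTGAT (6.72% of all windows) was found 59 to 54 bases before 1 start of Hnf4a on the opposite strand and 213 to 208 before 1 start of Foxa2, and the Cebpa window held none. The other motifs were held by 4.3% of all windows for TGTTTGC, 0.384% for CAAAGTCCA, 1.33% for CAAGGTCA and 0.819% for TTATGTAA. A match describes letters in the window and does not show binding.

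Values were signals on a linear scale, with values under 32 raised to 32 before the log2 was taken, and none of the 19 probe sets was at this floor on any array. A probe set was called at a Benjamini-Hochberg adjusted p under 0.05 over all 45037 probe sets in limma, fitted to the 12 arrays and 3 groups. In SHS4m mice against controls 10 of the 19 probe sets were called, 8 lower and 2 higher, where 5.4% of all probe sets were called (2.87% lower and 2.52% higher). Read by the brightest probe set of each gene, 6 of 9 genes were called (5 lower, 1 higher), where 7.47% of all genes were. In recovery mice against controls 3 of 19 were called, all lower and all of Nr5a2 (background 2.07%, and 1.19% for lower calls; by gene 1 of 9, background 2.52%). In recovery against SHS4m mice 2 of 19 were called, both higher (background 2.54%, and 1.32% for higher calls; by gene 2 of 9, background 3.68%). The median log2 difference of the 19 was −0.71, −0.11 and 0.15 in these 3 comparisons, and the median of all probe sets was 0 in each. The first count depended on single arrays. It was 6 without control replicate 1, 6 without control replicate 3, 5 without control replicate 4 and 6 without SHS4m replicate 67, and the count by gene was 3 without control replicate 4.

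**Figure D1:**
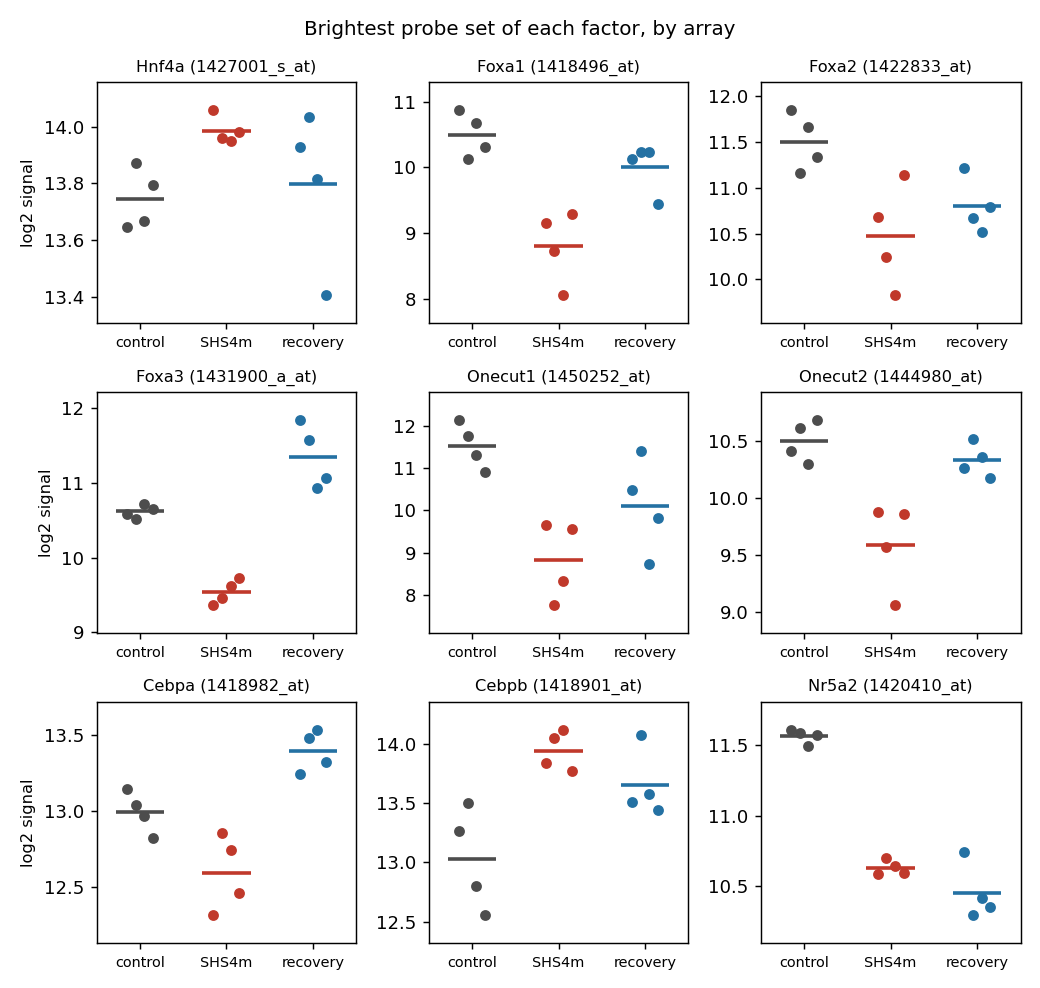
Log2 signal (y axis) of the brightest probe set of each of the 9 factors in control, SHS4m and recovery mice (x axis). Each point is 1 array, and the horizontal bars give the group mean of 4 arrays. Foxa3 sits at 9.54 in SHS4m, 10.62 in control and 11.35 in recovery mice with no overlap of the 3 groups, while Nr5a2 is near 11.56 in control and at 10.63 and 10.45 in the exposed groups.

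The FOXA genes encode the forkhead proteins that bind closed liver chromatin. Foxa1 (1418496_at) gave signals of 1871, 1121, 1628 and 1265 on the control arrays, 572, 424, 266 and 629 on the SHS4m arrays and 1120, 1204, 1202 and 697 on the recovery arrays. Every SHS4m array lay below every control and every recovery array, and recovery replicate 73 lay apart from the other 3 recovery arrays. Foxa1 fell 3.21-fold in SHS4m mice (log2 difference −1.68 ± 0.298 SE, limma adjusted p = 0.0119, n = 4 per group), and this call held under all 21 alternatives (adjusted p up to 0.037). In recovery mice its difference from control was −0.48 (95% interval −1.15 to 0.18, limma adjusted p = 0.572), and from SHS4m mice 1.20 (0.53 to 1.87, adjusted p = 0.0749).

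Foxa2 (1422833_at), the FOXA gene tied to bile acid handling and fasting, gave 3677, 2285, 3230 and 2586 in controls, 1635, 1210, 908 and 2248 in SHS4m mice and 2372, 1631, 1469 and 1766 in recovery mice. The SHS4m arrays were all under the lowest control, if closely for replicate 69, and the recovery arrays overlapped both. The differences from control were −1.03 (−1.66 to −0.41, limma adjusted p = 0.0679) in SHS4m and −0.70 (−1.33 to −0.08, adjusted p = 0.296) in recovery mice, so Foxa2 was not called. It passed when SHS4m replicate 69 was left out and when dim probe sets were filtered out, with a lowest adjusted p of 0.0297.

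Foxa3 (1431900_a_at), whose protein regulates glucose transport and fat metabolism, gave 1536, 1472, 1681 and 1613 in controls. It gave 659, 702, 784 and 852 in SHS4m mice and 3680, 3040, 1950 and 2152 in recovery mice. The 3 groups did not overlap: SHS4m lay lowest and recovery highest, with 1950 in recovery replicate 72 the nearest to control. Foxa3 fell 2.11-fold in SHS4m mice (log2 −1.08 ± 0.184 SE, limma adjusted p = 0.0101) and was 3.51-fold higher in recovery than in SHS4m mice (log2 1.81, adjusted p = 0.00218). Both calls held under all 21 alternatives (adjusted p up to 0.0327 and 0.026). Recovery mice were 1.66-fold above control (log2 0.73, 95% interval 0.32 to 1.15), which did not pass over all probe sets (adjusted p = 0.0841, and 0.0519 to 0.208 over the alternatives).

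Of the 19 probe sets, the 2 of Onecut1 gave the largest log2 differences of SHS4m mice from control. The brighter, 1450252_at, gave 4489, 3446, 2526 and 1916 in controls, 803, 217, 321 and 760 in SHS4m mice and 1434, 2717, 424 and 907 in recovery mice. The other, 1421447_at, gave 4972, 2950, 2407 and 1654 in controls, 774, 173, 178 and 500 in SHS4m mice and 1216, 1328, 219 and 1047 in recovery mice. On both, all SHS4m arrays lay below all controls, and recovery replicate 72 lay among the SHS4m arrays. That array also had the highest ratio of 3' to 5' signal of actin (8.82, against 3.24 to 4.64 on the other 11) and of Gapdh (4.52 against 2.24 to 2.95), a measure that rises as RNA degrades. By group, the actin ratio was 3.24 to 3.90 in control, 3.90 to 4.64 in SHS4m and 4.10 to 8.82 in recovery mice, so no exposed array was below any control. The Gapdh ratio overlapped among the groups, at 2.37 to 2.95 in control and 2.29 to 4.52 in recovery mice, with the SHS4m arrays from 2.24 upward and all below the highest control. The part of RNA quality in the differences of any of the 9 factors was not tested.

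Onecut1 fell 6.47-fold on 1450252_at (log2 −2.69 ± 0.614 SE, limma adjusted p = 0.034) and 8.36-fold on 1421447_at (log2 −3.06 ± 0.697 SE, adjusted p = 0.0337) in SHS4m mice. The sizes rank 30 and 17 among the absolute log2 differences of the 45037 probe sets. The calls did not hold without each of the 4 controls or without SHS4m replicates 67 and 68 (the second probe set also without 69), where the adjusted p rose to 0.0889 and 0.0894. In recovery mice the differences from control were −1.41 (−2.79 to −0.04, adjusted p = 0.358) and −1.83 (−3.39 to −0.26, adjusted p = 0.271). Without recovery replicate 72 they were −0.95 and −1.21 (adjusted p = 0.602 and 0.46).

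Onecut2, the paralog expressed with Onecut1 in liver and bile duct, was read by 3 probe sets. The brightest, 1444980_at, gave 1364, 1563, 1260 and 1646 in controls, 941, 761, 533 and 928 in SHS4m mice and 1232, 1467, 1317 and 1156 in recovery mice. SHS4m arrays lay below those of both other groups, which overlapped. It fell 1.88-fold in SHS4m mice (log2 −0.91, limma adjusted p = 0.0174). The call was lost when control replicate 4 was removed and in the fit of 8 arrays, with an adjusted p of up to 0.0582. The other 2 probe sets had differences of −0.69 (adjusted p = 0.196) and −0.71 (adjusted p = 0.148), with overlapping groups, and the mean of the 3 gave −0.77 (adjusted p = 0.0609 over 18193 genes). In recovery mice the 3 differences from control were −0.17, 0.20 and 0.01 (adjusted p = 0.754, 0.834 and 1), with 95% intervals that reached from −0.57 to 0.79 in all.

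**Figure D2:**
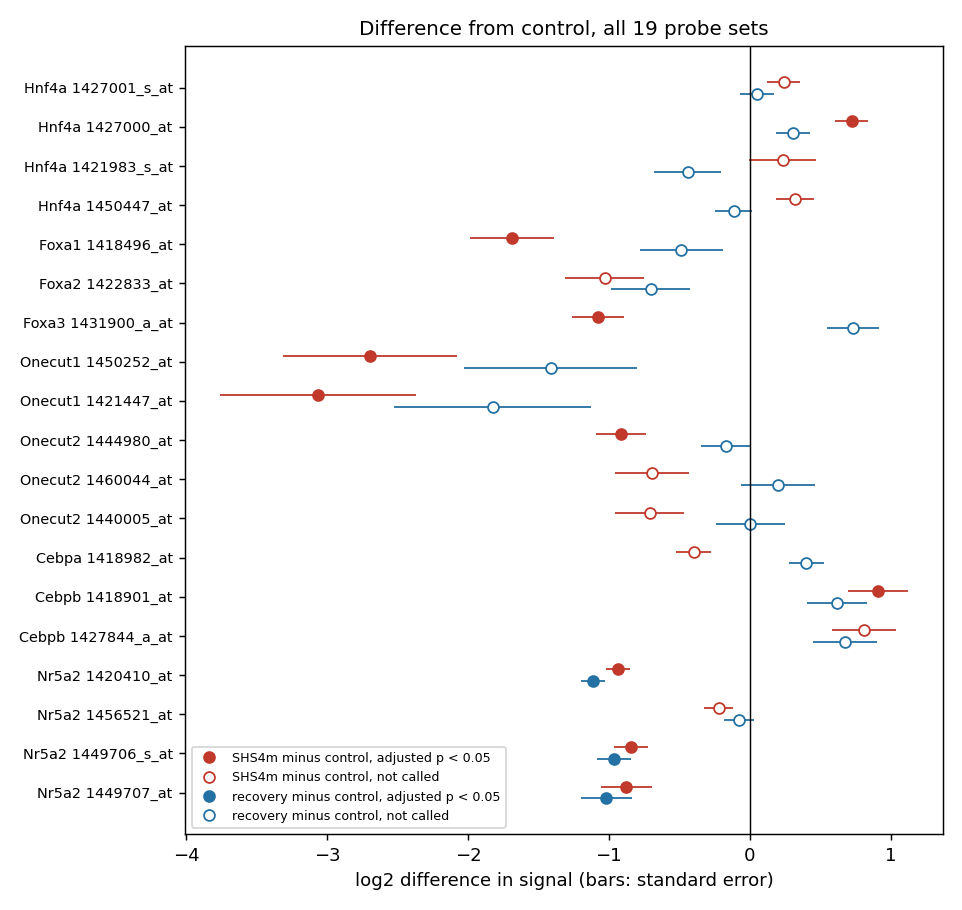
Log2 difference in signal from the 4 control arrays (x axis) for each of the 19 probe sets (y axis) in SHS4m (red) and recovery mice (blue); bars are standard errors and filled points passed an adjusted p of 0.05. In SHS4m mice 10 points are filled, from −3.06 (Onecut1) to 0.91 (Cebpb), while in recovery mice the 3 filled points all belong to Nr5a2.

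Nr5a2 was the only one of the 9 called below control in both exposed groups. It was read by 4 probe sets. The brightest, 1420410_at, gave 3127, 3071, 2881 and 3042 in controls, 1535, 1661, 1595 and 1546 in SHS4m mice and 1713, 1257, 1366 and 1310 in recovery mice. No exposed array reached any control array, and the exposed groups overlapped each other. It fell 1.91-fold in SHS4m mice (log2 −0.94 ± 0.0846 SE, limma adjusted p = 0.000602) and was 2.16-fold below control in recovery mice (log2 −1.11, adjusted p = 0.0028). Both calls held under all 21 alternatives (adjusted p up to 0.00362 and 0.0255). Recovery and SHS4m mice differed by −0.18 (95% interval −0.37 to 0.01, adjusted p = 0.405), which passed only without recovery replicate 70 (adjusted p = 0.0186).

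A second Nr5a2 probe set, 1449706_s_at, gave 820, 1014, 869 and 859 in controls, 389, 529, 562 and 519 in SHS4m mice and 520.02, 430, 449 and 430 in recovery mice. It fell by 0.84 and 0.96 on the log2 scale (limma adjusted p = 0.00437 and 0.0073), held under all 21 alternatives. The dim 1449707_at, at 118 to 135 in controls, 53 to 82 in SHS4m and 47 to 82 in recovery mice, fell by 0.87 and 1.02 (adjusted p = 0.0229 and 0.0249). The SHS4m call was lost without control replicates 1, 3 or 4 or SHS4m replicates 67 or 69 (adjusted p up to 0.0623). The recovery call was lost without control replicates 1, 3 or 4 or recovery replicates 71 or 73 and in the fit of 8 arrays (adjusted p up to 0.0732). The 1456521_at probe set did not follow the others. It gave 1782, 1829, 1999 and 1893 in controls, 1427, 1744, 1806 and 1487 in SHS4m mice and 1520, 1673, 2028 and 1945 in recovery mice, so the groups overlapped. Its differences from control were −0.22 (−0.46 to 0.01, adjusted p = 0.324) and −0.07 (−0.31 to 0.16, adjusted p = 0.856). Which part of the gene each probe set reads was not examined here.

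**Figure D3:**
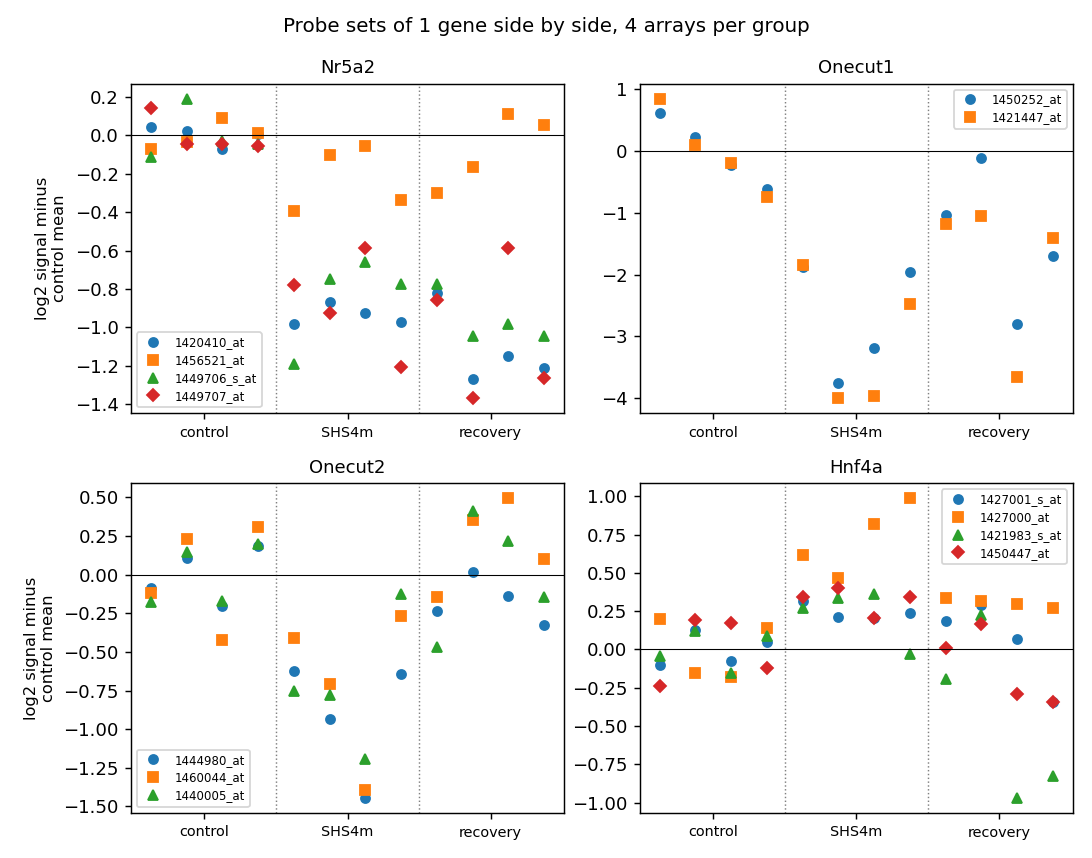
Log2 signal minus the control mean of the same probe set (y axis) for the genes read by over 2 probe sets and for Onecut1; each symbol is 1 array, with the 4 arrays of each group side by side (x axis) and symbol shapes marking probe sets. For Nr5a2, 3 probe sets sit together below control in both exposed groups and 1456521_at stays near it. For Onecut1, both probe sets place recovery replicate 72 among the SHS4m arrays.

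Of the C/EBP pair, Cebpb was called against control and Cebpa between the exposed groups. Cebpb, whose protein takes part in the acute phase and gluconeogenesis, gave 9855, 11573, 7144 and 6022 in controls, 14617, 16888, 17758 and 13948 in SHS4m mice and 11616, 17203, 12239 and 11121 in recovery mice on 1418901_at. All SHS4m arrays exceeded all controls, and 1 recovery array, replicate 73, lay within the control range. Cebpb rose 1.88-fold in SHS4m mice (log2 0.91, limma adjusted p = 0.0387), a call that did not hold in 11 of 21 alternatives (adjusted p up to 0.105). Those were the fit of 8 arrays and the fits without control replicates 1, 3 and 4, without each SHS4m array in turn and without recovery replicates 70, 72 and 73. Its other probe set gave 1577, 1697, 1076 and 934 in controls and 2142, 2526, 2685 and 1763 in SHS4m mice (log2 0.81, adjusted p = 0.0728). The mean of the 2 gave 0.86 (adjusted p = 0.0418 over 18193 genes), which was not refitted with arrays left out. In recovery mice the differences of the 2 probe sets from control were 0.62 (0.14 to 1.10) and 0.68 (0.17 to 1.18), with adjusted p of 0.215 and 0.194.

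Cebpa (1418982_at), whose protein sustains the differentiated hepatocyte, gave 9041, 8415, 8007 and 7235 in controls, 5108, 7403, 6850 and 5647 in SHS4m mice and 9690, 11428, 11835 and 10213 in recovery mice. Recovery arrays lay above all others, and SHS4m replicate 67 reached into the control range. Cebpa was 1.74-fold higher in recovery than in SHS4m mice (log2 0.80, limma adjusted p = 0.0114, up to 0.0497 over the alternatives). Neither group was called against control. The difference was −0.40 (−0.67 to −0.12, adjusted p = 0.108) in SHS4m and 0.40 (0.12 to 0.68, adjusted p = 0.16) in recovery mice.

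Hnf4a, the central nuclear receptor of the network, was read by 4 probe sets. All 4 had a higher mean in SHS4m mice than in controls, but only 1 was called, and in recovery mice their directions differed. The brightest, 1427001_s_at, gave 12816, 15017, 13017 and 14211 in controls, 17068, 15925, 15811 and 16170 in SHS4m mice and 15606, 16795, 14408 and 10847 in recovery mice. SHS4m arrays were above every control, by a log2 difference of 0.24 that was not called (−0.03 to 0.51, limma adjusted p = 0.345). On 1427000_at the signals were 4464, 3492, 3427 and 4290 in controls, 5969, 5381, 6866 and 7706 in SHS4m mice and 4913, 4846, 4788 and 4685 in recovery mice, with no overlap among the 3 groups. This probe set rose 1.65-fold in SHS4m mice (log2 0.72, adjusted p = 0.00899, up to 0.0439 over the alternatives), and recovery mice differed from control by 0.31 (0.04 to 0.57, adjusted p = 0.287). The other 2 had SHS4m differences of 0.23 (adjusted p = 0.698) and 0.32 (adjusted p = 0.24). Averaged over its probe sets, Hnf4a differed by 0.38 in SHS4m mice (adjusted p = 0.0635 over 18193 genes) and by −0.05 in recovery mice (adjusted p = 0.915). On 1421983_s_at, 2 recovery arrays were low, at 531 in replicate 72 and 587 in replicate 73, against 910 and 1216 in the other 2 and 933 to 1126 in controls.

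Overlap of the groups was counted without a test. In SHS4m mice 14 of 19 probe sets did not overlap with controls (9 lower, 5 higher; background 11.8%). In recovery mice 8 did not (4 lower, 4 higher; background 7.61%), and between the exposed groups 7 did not (5 higher in recovery; background 8.24%). At the study's threshold, read as an unadjusted p under 0.05 and a 2-fold change, 5 probe sets passed in SHS4m mice, all lower (background 2.47%). These were the 2 of Onecut1 and those of Foxa1, Foxa2 and Foxa3. The study's own list for SHS4m mice is shorter than the 1114 probe sets that passed here, and Foxa2 is not on it. In recovery mice 4 passed, all lower, 2 of Onecut1 and 2 of Nr5a2 (background 1.37%), and between the exposed groups 2 passed, Foxa1 and Foxa3, both higher in recovery mice (background 1.7%).

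Other transcription factors and cofactors of the hepatocyte were read from a list of 29, of which 26 were matched, each by its brightest probe set. In SHS4m mice 5 were higher and 4 lower by the adjusted p (34.6% called, against 7.47% of all genes), with a median log2 difference of 0.01. Cebpd, a C/EBP gene of the acute phase, rose 3.88-fold (log2 1.96, limma adjusted p = 0.00063), and Ppargc1a, the fasting-induced coactivator of HNF4A, rose 3.34-fold (log2 1.74, adjusted p = 0.00422). Esrra rose by a log2 of 0.66 (adjusted p = 0.044) and the xenobiotic receptor Nr1i2 by 0.60 (adjusted p = 0.00254). Nr0b2, which encodes SHP, a repressor that binds NR5A2 and HNF4A, fell 2.88-fold (log2 −1.53, adjusted p = 0.0122). Cebpg, Xbp1 and Nr2f2 fell by 0.77, 0.75 and 0.47 on the log2 scale (adjusted p = 0.00632, 0.00323 and 0.0372). Cebpd, Ppargc1a, Nr0b2 and Xbp1 are also on the study's list for SHS4m mice, which comes from these same arrays. So are Igfbp1, Pck1, Orm2, Il6ra, Abcg5, Usp2, Per2, Clock and Marco, given below. The direction of these genes here is not independent evidence.

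In recovery mice 4 of the 26 were called, all higher than control (15.4%, against 2.52% of all genes). These were Esrra (log2 0.75), the bile acid receptor Nr1h4 (0.64), Nr1i2 (0.38) and Rxra (0.24), with limma adjusted p from 0.0305 to 0.0477. None of the 4 was called without control replicate 1, without control replicate 3 or without recovery replicate 70. Against SHS4m mice 5 of the 26 were called (19.2%, against 3.68% of all genes). Cebpg, Xbp1 and Zhx2 were higher by 0.99, 0.47 and 0.44 on the log2 scale. Ppargc1a and Cebpd were lower, with log2 differences of −1.68 and −1.32 (adjusted p = 0.00886 and 0.00714).

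The genes on which these factors are known to act were called in both directions in SHS4m mice, where 7.47% of all genes were called. Of 14 matched HNF4A targets, 3 were called in SHS4m mice. The clotting factor F7 rose (log2 0.48, limma adjusted p = 0.0227), while the urea cycle enzyme Otc and the glycolytic kinase Pklr fell by 0.38 and 0.73 on the log2 scale (adjusted p = 0.0116 and 0.0356). This count was 1 without control replicates 1, 2 or 3 or SHS4m replicates 66 or 67. Of 11 FOXA or Onecut targets, 2 were called, both higher: the insulin-repressed Igfbp1 (log2 3.48, adjusted p = 0.016) and the gluconeogenic enzyme Pck1 (log2 1.20, adjusted p = 0.0126). In recovery against SHS4m mice Igfbp1 had a log2 difference of −4.38 (adjusted p = 0.00995), G6pc one of −1.75 (adjusted p = 0.0288) and Pklr one of 1.18 (adjusted p = 0.00823).

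Of 15 matched C/EBP targets, 4 were called in SHS4m mice, all higher, with a list median of 0.89 on the log2 scale. The acute-phase gene Orm2 rose 6.57-fold (limma adjusted p = 0.00612), Il6ra, the receptor of interleukin 6, rose 3.36-fold (log2 1.75, adjusted p = 0.00144), and Ppargc1a and Pck1 are given above. Of 8 matched NR5A2 targets, 4 were called. The sterol exporter genes Abcg5 and Abcg8 rose by 1.21 and 0.52 and the lipoprotein receptor gene Scarb1 by 0.54 on the log2 scale (adjusted p = 0.00088, 0.00973 and 0.00893), and Nr0b2 fell, as above. The bile acid synthesis genes Cyp7a1 and Cyp8b1, on the same list, were not called, with log2 differences of 0.26 and −0.21 (adjusted p = 0.964 and 0.858).

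The targets called in recovery mice against control, where 2.52% of all genes were called, were F7 among HNF4A targets (log2 0.47), Slc2a2 among FOXA or Onecut targets (0.54), Gys2 and Il6ra among C/EBP targets (1.26 and 1.08) and Abcg5 among NR5A2 targets (0.56), with limma adjusted p from 0.0209 to 0.0497. Each of these 4 lists had no called gene when certain single arrays were left out, control replicate 3 among them.

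Between the exposed groups, where 3.68% of all genes were called, 4 of 15 C/EBP targets were, all lower in recovery mice, among them Orm2 (log2 −2.65) and Ppargc1a and G6pc, as above. The count was 2 without SHS4m replicates 66, 68 or 69 or recovery replicates 71 or 72. Of 8 NR5A2 targets 2 were called, Abcg5 and Scarb1, both lower in recovery mice (−0.65 and −0.41), and 0 without SHS4m replicates 66 or 67 or recovery replicates 70, 71 or 73. Of 11 FOXA or Onecut targets the 2 called were Igfbp1 and G6pc, with 1 called without any 1 SHS4m array or without recovery replicates 71 or 72. Of 14 HNF4A targets Pklr was the only one called, and the count was also 1 with each array left out in turn. No hepatocyte product was called by limma, with 5 of 25 at an unadjusted p under 0.05.

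**Figure D4:**
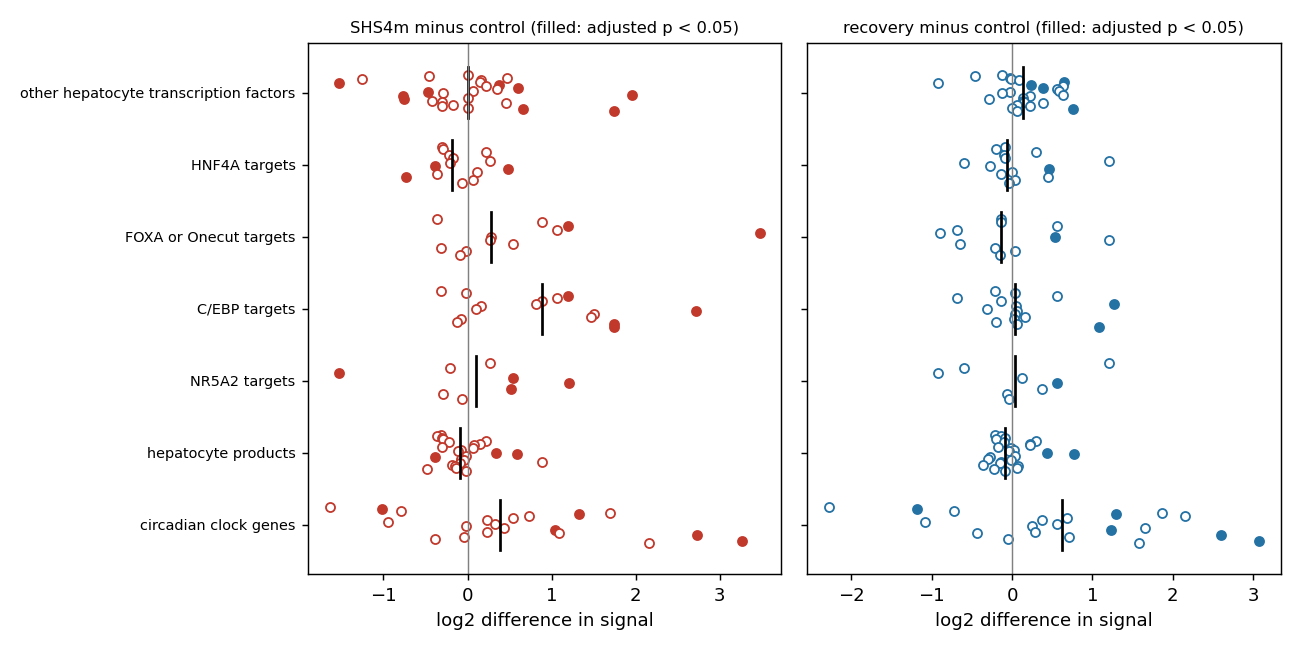
Log2 difference in signal from control (x axis) for the matched genes of 7 lists (y axis) in SHS4m (left) and recovery mice (right); each point is 1 gene by its brightest probe set, filled where the adjusted p was under 0.05, and the black bar is the list median. The C/EBP targets have the highest median in SHS4m mice, 0.89, and hepatocyte products sit close to 0 in both panels.

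Among the transcripts of hepatocyte products, 3 of 25 matched genes were called in SHS4m mice (12%, against 7.47% of all genes). These were the asialoglycoprotein receptor genes Asgr1 and Asgr2 (log2 0.34 and 0.59, limma adjusted p = 0.000738 and 0.0349) and Otc. This count was 0 with the 25th percentile of each array as floor and 8 in the fit of 8 arrays, and 8 of 25 had an unadjusted p under 0.05. In recovery mice only Asgr1 and Asgr2 were called (0.43 and 0.78, adjusted p = 0.0028 and 0.0228), 8% of the list against 2.52% of all genes. The list median was −0.09 in both. Alb, Ttr and Apoa1, the genes for major plasma proteins, were not called in SHS4m mice (log2 −0.31, −0.36 and −0.30, adjusted p = 0.345, 0.174 and 0.198). Tat, a tyrosine-degrading enzyme induced by glucocorticoids, differed by 0.89 (adjusted p = 0.0764).

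The label of liver was checked against cell type markers. The median log2 signals over the 12 arrays were 15.75 for Alb, 15.90 for Ttr, 16.07 for Apoa1 and 13.46 for Tat. No hepatocyte marker (7 matched) and no bile duct marker (8 matched) was called by limma in SHS4m mice, with 3 and 1 at an unadjusted p under 0.05. The bile duct markers Cftr, Muc1, Cldn7 and Krt19 were at the floor on 10, 9, 8 and 6 of the 12 arrays, so a fall in them could hardly be seen. The summed hepatocyte signal was 319100 to 370500 in control, 305600 to 338400 in SHS4m and 271400 to 415100 in recovery mice, and the summed bile duct signal 557 to 747, 475 to 748 and 505 to 699. Endothelial (8473 to 11320, 7898 to 9704 and 9171 to 11460) and stellate cell markers (7413 to 11750, 9546 to 12790 and 7815 to 10370) overlapped too, with none called by limma and 1 of 8 each at an unadjusted p under 0.05 in SHS4m mice. Pancreas markers, which bear on Nr5a2 and the FOXA genes, summed to 137 to 278 in control, 157 to 318 in SHS4m and 102 to 340 in recovery mice, none called by limma and 1 of 6 at an unadjusted p under 0.05 in SHS4m mice, with Cpa1 at the floor on every array.

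A few immune cell markers were called in SHS4m mice, 1 of 7 for lymphocytes and 2 of 11 for Kupffer cells and macrophages. These are 14.3% and 18.2% of the lists, against 7.47% of all genes. None was called by limma in recovery mice against control, where 0 and 1 had an unadjusted p under 0.05. The 7 matched lymphocyte markers summed to 899 to 1613 in control, 662 to 866 in SHS4m and 1056 to 1194 in recovery mice, with Ptprc, the pan-leukocyte gene, lower in SHS4m mice (log2 −0.73, limma adjusted p = 0.0166). Among 11 Kupffer cell and macrophage markers Marco rose (log2 1.90, adjusted p = 0.0137) and Clec4f fell by 0.51 on the log2 scale (adjusted p = 0.0173), with sums of 19550 to 24660, 15780 to 20250 and 17050 to 24450. The median log2 difference of these 11 in SHS4m mice was −0.35, with 6 at an unadjusted p under 0.05 in limma. For the 7 lymphocyte markers it was −0.39, with 2 at that p. The part of these cells in the differences of the 9 factors was not tested.

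Of 20 matched clock genes, 5 were called in SHS4m mice (25%, against 7.47% of all genes) and 5 in recovery mice against control (25%, against 2.52%). Among the SHS4m calls were Usp2 (log2 3.26, limma adjusted p = 0.0035), Per2 (1.32, adjusted p = 0.0228) and Clock (−1.02, adjusted p = 0.0119). Their values in recovery mice were 3.07, 1.30 and −1.18 (adjusted p = 0.0114, 0.0449 and 0.0145). The SHS4m count was 3 without SHS4m replicate 67, and the recovery count, also 5, was 3 without any 1 of the 12 arrays but control replicate 2, and 6 without that one. Recovery calls numbered 0 in the fit of 8 arrays, 3 with a floor of 64 and 10 at the study's threshold. No clock gene was called between the exposed groups by limma, with 3 of 20 at an unadjusted p under 0.05. Exposure and the time at which livers were taken cannot be told apart for these genes, and the part of either in the differences of the factors was not tested.

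The genes most like each called factor had the highest Pearson correlation with its brightest probe set, in log2 signal over the 12 arrays. They were sought among 11821 genes with a mean log2 signal of at least 6. The arrays share their groups, so these values are a description. Foxa3 was followed most closely by Fam20c (r = 0.952) and Pkdcc (0.943), Foxa1 by Rnd3 (0.953) and Serf2 (0.948), and Onecut1 by Tug1 (0.954) and Mitd1 (0.953). Nr5a2 was followed by Hsd17b12 (0.948) and Ctcf (0.941), Cebpb by Klf13 (0.948) and Slc25a32 (0.931), Cebpa by Rnf167 (0.972) and Bdh1 (0.956), Onecut2 by Omp (0.971) and Ppm1m (0.957) and Hnf4a by Hddc2 (0.91) and Slc25a5 (0.898). The brightest Hnf4a probe set, 1427001_s_at, was not the one that was called. None of the 9 factors was among the 5 genes most like another.

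The probe set 1456974_at was among the 5 most like both Foxa1 (0.937) and Onecut2 (0.943). The platform annotation used here names it Gm16551, a long non-coding RNA beside Onecut1, while the study's list of changed transcripts gives it the symbol Onecut1, and which transcript it reads was not examined here. RefSeq places Gm16551 at chr9:74848437-74852872 in GRCm38.p6, and its nearer end is 9048 bases before the start of Onecut1. The probe set gave 264, 236, 291 and 274 in controls, 115, 96.0, 66.2 and 121 in SHS4m mice and 171, 298, 190 and 191 in recovery mice. SHS4m arrays lay below all others. It fell 2.74-fold in SHS4m mice (log2 −1.45 ± 0.216 SE, limma adjusted p = 0.00551, up to 0.0192 over the alternatives) and was higher in recovery than in SHS4m mice by 1.09 (adjusted p = 0.0318, up to 0.113). It was described for its likeness to these factors, and may read Onecut1 itself, so its change is not a separate line of evidence for theirs.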

How the data were processed

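The authors hybridised liver RNA of 12 mice and deposited intensities of the probe sets on a linear scale. Per the labels they used Affymetrix Expression Console, and on every array the mean without the top and bottom 2% of values was 500. Which summarisation method was used is not given in the sources. Intensities under 32 were raised to 32 (29.9% to 33.5% of each array), log2 was taken, and 45037 probe sets, without the 64 array controls, were fitted with limma 3.58.1 in R 4.3.3 as 3 groups of 4. All p-values are two-sided, and those not adjusted are named as unadjusted. Adjustment was by Benjamini-Hochberg over all probe sets in the fit, or over 18193 genes for the mean of a gene's probe sets. The fit was tested on simulated data. The platform annotation named 1 gene for 34945 probe sets, several for 932 and none for 9160. Groups and replicate numbers came from the labels, which name no pairs, and p-values measure the spread between these mice. Genes of fixed lists (other hepatocyte factors, targets of HNF4A, FOXA or Onecut, C/EBP and NR5A2, hepatocyte products, clock genes, cell type markers) were read by their brightest probe set, and at most 4 called genes per direction and comparison were named. The members and lists were chosen with earlier results of these data known. The number of arrays limits the precision. Array medians were 65.2 to 78.2, and log2 signals correlated at 0.9718 to 0.9797 within groups and 0.9637 to 0.9754 between them, across probe sets, which are not independent. Other floors, scalings, filters, weights, fits and the removal of each array were tried, 21 alternatives at the adjusted p, besides the study's threshold.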

Additional observations from a re-analysis of the deposited data

Results flagged for a closer look

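Of 57 checks for a sample that lies apart from its group (19 probe sets in 3 groups of 4), 3 found one, and chance gives about 1 in 20. Foxa1 in recovery replicate 73 had a log2 signal of 9.44, against 10.13 in the nearest recovery array. Onecut1 on 1421447_at in recovery replicate 72 had 7.78 against 10.03, on the array with the highest 3' to 5' ratios of actin and Gapdh, and the part of RNA quality in this value was not tested. Nr5a2 on the dim 1449707_at in control replicate 1 had 7.08 against 6.89.

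The change from the shared controls differed between the exposed groups for 2 factors by the limma comparison of recovery with SHS4m mice. It was 1.81 higher on the log2 scale in recovery mice for Foxa3 (adjusted p = 0.00218) and 0.80 higher for Cebpa (adjusted p = 0.0114). Foxa3 was higher in all 4 recovery arrays than in all 4 SHS4m arrays, and so was Cebpa.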

How the results depend on the processing

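Of the member results under the alternatives, 1193 kept their direction and their side of the threshold, 45 lost a call, 8 gained one and 8 turned in sign. Of member probe sets in SHS4m mice, 10 were called, and the count was 5 at the study's threshold, of which 4 were among the 10 and the other was Foxa2. It ranged from 5 to 10 with 1 array left out. Those that turned in sign were small, uncalled differences of recovery from control. Nr5a2 on 1456521_at turned to 0.0048 with each array centred on its median and to 0.0014 without recovery replicate 70 (−0.14 to 0.0014 with 1 array left out). Hnf4a on 1427001_s_at turned to −0.029 without recovery replicate 71 (−0.029 to 0.18). Onecut2 on 1440005_at turned to −0.060 with array weights, −0.053 without control replicate 1, −0.051 without control replicate 3, −0.13 without recovery replicate 71 and −0.065 without recovery replicate 72 (−0.13 to 0.16). The cause was not tested. Over all probe sets the SHS4m calls went from 2430 to 1520 with the 25th percentile of each array as floor and to 1114 at the study's threshold. The recovery calls went from 931 to 365 with that floor, 406 with log2 of the value plus 32, 475 with centring, 258 in the fit of 8 arrays, 567 without dim probe sets and 619 at the study's threshold. The recovery against SHS4m calls went from 1142 to as few as 642 under the settings that kept all arrays. Higher calls made up 46.7% of the SHS4m and 42.4% of the recovery calls, and 60.9% and 57.3% with centring, while members stayed at 2 higher and 8 lower in SHS4m mice. No paired analysis was possible because the groups share no replicate numbers. With 4 arrays per group, a difference that was not called may still exist.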
